A study of Homo sapiens with 12 samples.

Results

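The genes described here encode subunits of Polycomb repressive complex 2 (PRC2): the core subunits EZH2, EZH1, EED, SUZ12, RBBP4 and RBBP7, the PRC2.2 accessory subunits JARID2 and AEBP2, and 2 accessory subunits of the PRC2.1 form, C17orf96 (the older name of EPOP, used in the files) and LCOR, whose locus also encodes the PRC2.1 subunit PALI1. They were chosen by name, not by their values, and are 10 of the 29972 gene rows in the authors' tables. All 10 were tested in both cell lines.

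PRC2 places methyl groups on lysine 27 of histone H3, a mark of silenced developmental genes. EZH2 or its paralog EZH1 carries the catalytic site, which works only when held by EED, which also reads the finished mark, and SUZ12, the scaffold of the complex. Accessory proteins bind SUZ12 in mutually exclusive sets: a Polycomb-like protein (PHF1, MTF2 or PHF19) together with EPOP or PALI1 makes PRC2.1, and JARID2 with AEBP2 makes PRC2.2. EZH2 is often abundant in triple-negative breast cancer, and EZH2 and EED are known targets of the E2F factors that drive the cell cycle.

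The samples were mRNA-seq libraries of MDA-MB-436 and BoM-1833, both established lines labelled as triple-negative breast cancer, the latter a derivative of MDA-MB-231 selected for bone metastasis. Each line received 5 nM siRNA for 72 h by reverse transfection with Lipofectamine RNAiMAX. The control groups (siNT) received a Dharmacon pool of non-targeting siRNAs, and the knockdown groups (siPHF19) an equal mixture of 2 Silencer Select siRNAs against PHF19 from ThermoFisher, so that the target and the supplier of the siRNA changed together and cannot be told apart. There were 3 libraries in each of 4 groups (12 libraries), and the labels do not say whether these were separate cultures, so the p-values measure only the spread between these samples.

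Libraries held 13.7 to 24.0 M reads assigned to genes. The siNT libraries 1 and 3 of MDA-MB-436 stood apart from their group, at a median absolute log2 deviation of 0.158 and 0.141 from the other 2 libraries, as did siNT library 1 of BoM-1833 at 0.131. In the remaining libraries the deviation was 0.0564 to 0.0941. PHF19 itself was left at 9.75% (MDA-MB-436) and 10.9% (BoM-1833) of its siNT level. Of the receptor genes that define the label, ESR1 reached at most 0.240 and PGR at most 0.112 CPM. ERBB2, another of them, lay between 49.6 and 68.3 CPM in the 12 libraries. CPM are counts scaled to library size, adjusted by TMM factors, and given per M reads. The leukocyte gene PTPRC reached 1.27, the endothelial gene CDH5 0.116, the smooth muscle gene MYH11 0.642 and the hepatocyte gene ALB 0.0579 CPM at most. PECAM1, another endothelial gene, lay between 16.96 and 24.5 CPM in BoM-1833 and between 0.701 and 1.86 CPM in MDA-MB-436, and its part in the differences between lines was not tested. In bulk RNA, fewer cells that express a gene and less of its RNA per cell cannot be told apart.

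Because several subunit genes are known E2F targets, their promoters were searched for the E2F-type 8-base motifs TTTCCCGC, TTTCGCGC, TTTGCCGC and TTTGGCGC on both strands, within 250 bases before to 50 after the RefSeq start (GRCh38.p14). The RefSeq table held promoters for 9 of the 10 genes, all but EPOP. A motif was present in 4 of these 9 (44.4%), against 3.99% of the 27305 genes in the table and 13 of 19 (68.4%) classical S phase targets of E2F. Some genes have more than 1 window, and a gene was counted if any window matched. The 9 genes have 14 windows, of which 4 held a match, beside 3.31% of all windows in the table. Window 2 of EZH2 held none. EED and the remaining 4 genes had no match. The members' promoters were richer in CpG and GC than all 35116 windows in the table, with medians of 41 CpG and 73.8% GC beside 14 CpG and 58.7% GC, and the part of this in the share with a motif was not tested. The matches are printed here within 30 bases of the sense strand, with the motif, or its reverse complement for EZH1, in capitals. They lie in the windows chr7:148884242-148884541 (minus strand, EZH2), chr17:42744991-42745290 (minus strand, EZH1), chr17:31936757-31937056 (plus strand, SUZ12) and chr12:19440349-19440648 (plus strand, AEBP2). The EZH2 match began at offset 1 from the start and those of EZH1, SUZ12 and AEBP2 at offsets -115, -189 and -150.
EZH2: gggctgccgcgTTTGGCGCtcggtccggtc
EZH1: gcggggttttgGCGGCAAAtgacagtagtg
SUZ12: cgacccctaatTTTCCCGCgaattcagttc
AEBP2: caaggcgacgtTTTGCCGCgatccccctgc
These matches are a description of the letters, not a measure of binding.

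The first comparison asked which subunit genes the lines carried before knockdown, and at what level. On the scale of CPM per kb of exon, RBBP7, a histone-binding WD40 protein, was the most abundant of the 10 transcripts in both lines, at 140.0 ± 10.7 in MDA-MB-436 siNT and 62.6 ± 3.61 in BoM-1833 siNT (SD, n = 3). Below it the order differed. In MDA-MB-436 the mean levels per kb were 45.3 for RBBP4, 37.6 for EZH2, 22.6 for SUZ12, 12.6 for AEBP2, 7.47 for EED, 6.77 for C17orf96, 4.02 for JARID2, 2.92 for EZH1 and 1.32 for LCOR. In BoM-1833 they were 26.0 for SUZ12, 21.1 for EZH2, 17.1 for RBBP4, 12.4 for JARID2, 7.62 for EED, 6.85 for EZH1, 6.32 for C17orf96, 5.57 for AEBP2 and 1.59 for LCOR. Neighbours in this order were separated in every library except EED and C17orf96 in MDA-MB-436, and EZH1, C17orf96 and AEBP2 in BoM-1833. The order depends on the gene length used. With the longest coding transcript in place of the union of exons, RBBP4 overlapped EZH2 in MDA-MB-436, where EED and C17orf96 no longer overlapped. In BoM-1833, SUZ12 then overlapped EZH2 and JARID2 overlapped EED, and the mean of AEBP2 (6.40) lay above that of C17orf96 (6.32).

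**Figure D1:**
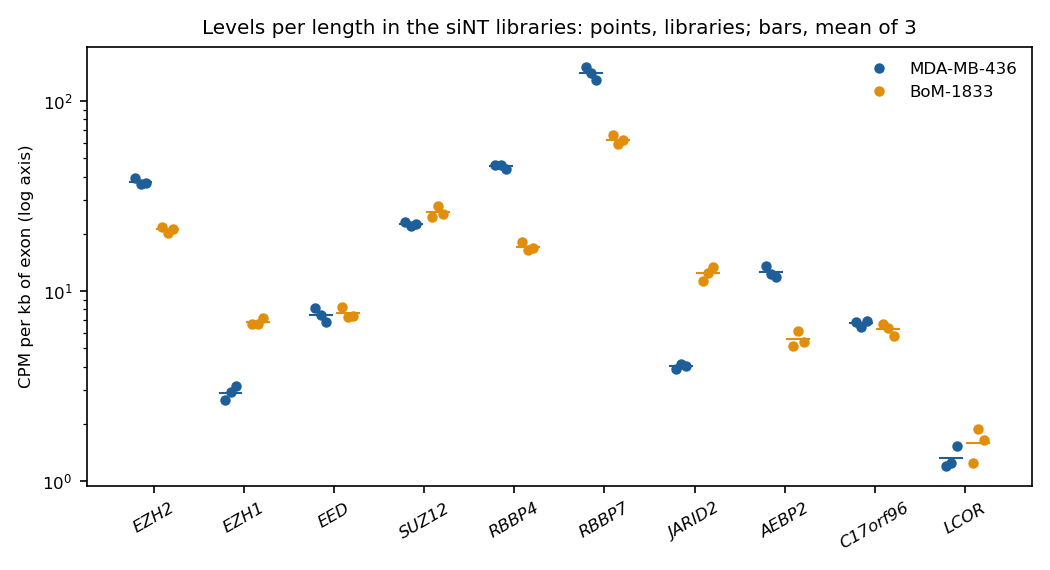
Level of each subunit transcript in the siNT libraries, as CPM per kb of the union of exons on a log axis; points are libraries, bars the mean of 3. JARID2 and EZH1 sit higher in BoM-1833, while AEBP2, RBBP4, RBBP7 and EZH2 sit higher in MDA-MB-436, and EED is level in both.

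Between the lines, 7 of the 10 subunit genes differed in the siNT libraries by limma (adjusted p under 0.05), beside 80.6% of all 14566 genes tested. Higher in BoM-1833 were 3 (39.6% of all genes tested) and lower 4 (41.0%). Line cannot be told apart from any batch of culture or sequencing here. For the 2 catalytic paralogs the difference went opposite ways. EZH2 measured 121, 112 and 113 CPM in MDA-MB-436 and 66.5, 62.1 and 65.1 CPM in BoM-1833, a log2 difference of -0.83 (SE 0.07, adjusted p 3.2e-06, limma). EZH1 measured 12.4, 13.7 and 14.6 CPM in MDA-MB-436 against 31.2, 30.9 and 33.3 CPM in BoM-1833, a log2 difference of 1.23 (SE 0.10, adjusted p 2.86e-06, limma). The libraries of the lines did not overlap for either gene.

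The PRC2.2 pair also went opposite ways. JARID2, which recruits PRC2 and is itself methylated by it, measured 22.9, 24.3 and 23.7 CPM in MDA-MB-436 and 66.5, 73.3 and 78.7 CPM in BoM-1833, 3.06-fold higher in the latter (log2 difference 1.62, SE 0.08, adjusted p 2.04e-07, limma). AEBP2, a zinc finger protein that stabilises the complex, measured 78.9, 72.4 and 69.8 CPM in MDA-MB-436 and 30.3, 36.2 and 31.5 CPM in BoM-1833, 2.26-fold higher in the former (log2 difference -1.17, SE 0.09, adjusted p 2.81e-06, limma). Each BoM-1833 library lay above every MDA-MB-436 library for JARID2 and below every one for AEBP2.

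The histone chaperones RBBP4 and RBBP7, which PRC2 shares with several other chromatin complexes, were both lower in BoM-1833. RBBP4 measured 369.9, 367 and 353 CPM in MDA-MB-436 and 145, 132 and 134 CPM in BoM-1833 (log2 difference -1.41, SE 0.06, adjusted p 9.69e-08, limma). For RBBP7 the mean was 382 ± 29.04 against 171 ± 9.85 CPM (SD, n = 3; log2 difference -1.16, SE 0.08). The scaffold SUZ12 was 1.15-fold higher in BoM-1833 (101 ± 2.60 against 117 ± 8.34 CPM, SD, n = 3; log2 difference 0.20, SE 0.07, adjusted p 0.0272, limma), and this call was lost with library totals as the only scaling (adjusted p 0.0510, limma), with upper-quartile factors (0.0539) and without any one of 4 libraries: MDA-MB-436 siNT 2 (0.105) or 3 (0.0711), or BoM-1833 siNT 2 (0.122) or 3 (0.0534).

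EED, C17orf96 and LCOR did not pass the test between lines. EED measured 27.1 ± 2.27 CPM in MDA-MB-436 and 27.7 ± 1.85 CPM in BoM-1833 (SD, n = 3; log2 difference 0.03, SE 0.10, adjusted p 0.783, limma), and its sign changed between settings. C17orf96 measured 25.2 ± 0.988 and 23.5 ± 1.76 CPM (SD, n = 3; log2 difference -0.10, SE 0.09, adjusted p 0.322, limma). LCOR measured 30.9, 32.0 and 39.2 CPM in MDA-MB-436 and 32.1, 47.9 and 42.4 CPM in BoM-1833 (log2 difference 0.25, SE 0.15, adjusted p 0.162, limma). Without the outlying BoM-1833 siNT library 1, LCOR was called at 0.42 (adjusted p 0.0158, limma).

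The second comparison asked how the other subunit genes responded to loss of PHF19. In MDA-MB-436, AEBP2, C17orf96 and SUZ12 were lower and LCOR was higher after siPHF19, so that 4 of 10 were called by the authors' deposited table (adjusted p under 0.05, DESeq2 Wald test), beside 22.1% of all genes tested. The 1 higher gene stands beside 10.5% and the 3 lower genes beside 11.5% of all genes tested. In BoM-1833, AEBP2 and C17orf96 were lower and no subunit gene was called higher, so that 2 of 10 were called by the authors' deposited table, beside 10.9% of all genes tested (5.21% higher and 5.72% lower). Called lower in both lines were 2 of 10, AEBP2 and C17orf96, beside 3.12% of the genes tested in both. The largest decrease left 65.7% of the siNT level (C17orf96 in MDA-MB-436), and the median log2 fold change of the 10 genes was -0.02 in each line in the authors' deposited tables, beside -0.002 (MDA-MB-436) and -0.004 (BoM-1833) over all genes tested. The libraries of siNT and siPHF19 did not overlap for 6 of 10 genes in MDA-MB-436 (42.2% of all genes tested), with siPHF19 above siNT for 3 and below for 3 (21.1% of all genes each way). In BoM-1833 they did not overlap for 4 of 10 (31.0%), with siPHF19 above for 1 (15.3%) and below for 3 (15.7%).

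**Figure D2:**
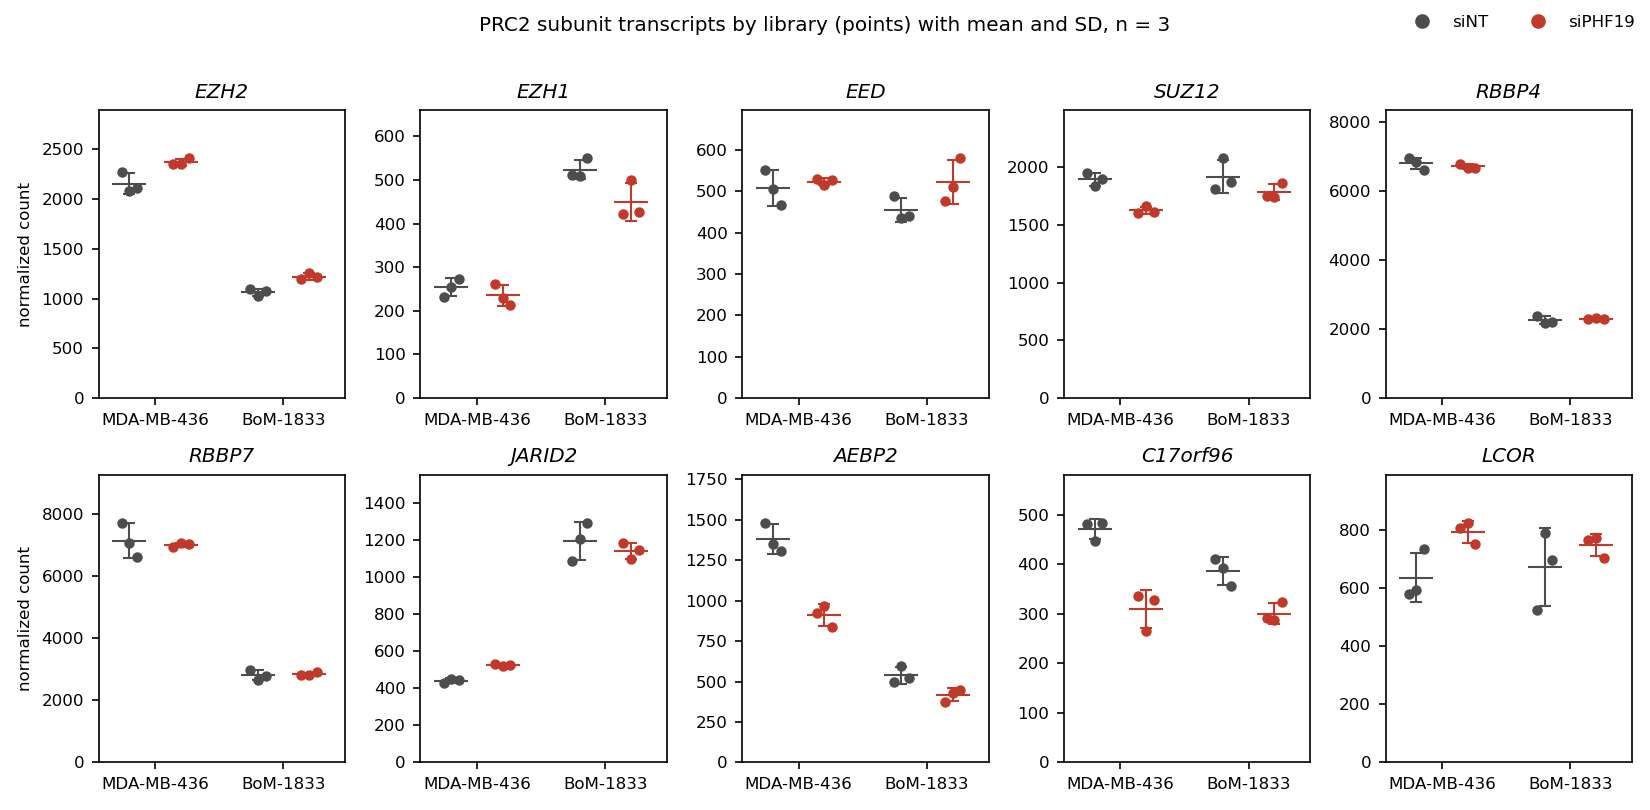
Normalized count of each gene in every library of both lines, from 0; points are libraries, with the mean and SD of 3 (grey siNT, red siPHF19), and each line has its own normalization. The AEBP2 and C17orf96 points of siPHF19 lie below those of siNT in both lines, and the RBBP4 and RBBP7 points overlap.

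Of the 6 core genes the authors' deposited tables called 1 in MDA-MB-436, SUZ12 (22.1% of all genes), and 0 in BoM-1833 (10.9%). In BoM-1833, 2 core genes, EZH2 and EZH1, had an unadjusted p under 0.05 there (DESeq2), as did 21.4% of all genes tested. Limma and a DESeq2 fit on all 12 libraries called 1 core gene, EZH2, among 1562 and 1658 genes called in all. The shares of all genes tested in these fits were not counted, so this call has no background beside it. The catalytic subunit EZH2 (chromosome 7, 148807383 to 148884321, minus strand, GRCh38) has an annotated pseudogene, EZH2P1, and reads may be shared between them. EZH2 had normalized counts of 2271, 2079 and 2112 in siNT libraries 1 to 3 of MDA-MB-436, and 2349, 2347 and 2409 in siPHF19. In BoM-1833 its counts were 1091, 1024 and 1073 in siNT and 1193, 1256 and 1213 in siPHF19. All siPHF19 libraries thus lay above all siNT libraries in both lines, by 9.95% and 14.9% in the mean. Neither difference passed: on the log2 scale the authors' deposited tables give 0.14 (SE 0.07, adjusted p 0.154) and 0.20 (SE 0.08, adjusted p 0.0757, DESeq2). Without MDA-MB-436 siNT library 1, one of those that stood apart, EZH2 was called at 0.18 (adjusted p 0.0313), and without BoM-1833 siNT library 1 at 0.22 (adjusted p 0.0333, DESeq2 on the recovered reads). By limma the adjusted p in BoM-1833 was 0.0475, and by DESeq2 on all 12 libraries 0.0129. The 5 other fits that left out 1 MDA-MB-436 library did not call EZH2 (adjusted p 0.222 to 0.525, DESeq2). Nor did the 8 other settings tried for that line (0.0504 to 0.455, DESeq2, edgeR or limma), which include a refit of the deposited fit. Of the fits without 1 BoM-1833 library, 5 gave no call (0.163 to 0.382, DESeq2). EdgeR (0.0536), and DESeq2 with the replicate number as a block (0.433), gave none there either.

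Its paralog EZH1 (chromosome 17, 42700275 to 42745049, minus strand), the form that prevails in non-dividing cells, had normalized counts of 232, 254 and 274 in siNT and 262, 230.3 and 214 in siPHF19 of MDA-MB-436, where the groups overlapped. In BoM-1833 the counts were 511, 510.0 and 549 in siNT and 422, 500.1 and 426 in siPHF19, without overlap. The authors' deposited tables give -0.11 (SE 0.14, adjusted p 0.654) and -0.22 (SE 0.11, adjusted p 0.214, DESeq2), and neither passed.

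SUZ12 (chromosome 17, 31937018 to 32001045, plus strand) had normalized counts of 1954, 1840.0 and 1896 in siNT and 1608, 1662 and 1617 in siPHF19 of MDA-MB-436, where every siPHF19 library was lower and the mean fell by 14.1%. In BoM-1833 the counts were 1809.9, 2079.5 and 1874 in siNT and 1749, 1746 and 1866 in siPHF19, and the groups overlapped. The authors' deposited tables give -0.22 (SE 0.07, adjusted p 0.0122) and -0.10 (SE 0.08, adjusted p 0.477, DESeq2). The call in MDA-MB-436 was lost without siNT library 2 (adjusted p 0.0954) and without siPHF19 library 1, 2 or 3 (0.166, 0.111 and 0.137, DESeq2). The annotated pseudogene SUZ12P1 held a mean of 31.1 normalized counts in MDA-MB-436 siNT and 24.4 in siPHF19, beside means of 1896 and 1629 for SUZ12, and reads may be shared between them.

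EED (chromosome 11, 86244544 to 86278813, plus strand) had normalized counts of 552, 505 and 466 in siNT and 529.8, 514 and 527 in siPHF19 of MDA-MB-436. In BoM-1833 they were 489, 436 and 441 in siNT and 476, 511 and 580.2 in siPHF19. The groups overlapped in both lines, and the authors' deposited tables give 0.04 (SE 0.11, adjusted p 0.824) and 0.19 (SE 0.11, adjusted p 0.316, DESeq2).

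RBBP4 (chromosome 1, 32651142 to 32686211, plus strand) and RBBP7 (chromosome X, 16839283 to 16870414, minus strand) did not pass in either line, and their groups overlapped in both. RBBP4 had a mean normalized count of 6801 ± 169 in siNT and 6712 ± 70.9 in siPHF19 of MDA-MB-436, and of 2257 ± 108 and 2303 ± 10.5 in BoM-1833 (SD, n = 3). RBBP7 had means of 7141 ± 556 and 7006 ± 69.7 in MDA-MB-436 and of 2808 ± 155 and 2853 ± 40.7 in BoM-1833 (SD, n = 3). From the authors' deposited tables the 95% intervals of the log2 fold change run from -0.13 to 0.09 and from -0.10 to 0.16 for RBBP4, and from -0.17 to 0.11 and from -0.11 to 0.15 for RBBP7, in MDA-MB-436 and BoM-1833. Exons of RBBP4 overlap those of SYNC and exons of RBBP7 those of TXLNG on the opposite strand, and RBBP4 has 6 annotated pseudogenes, so their reads may be shared.

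Of the PRC2.2 pair, AEBP2 was called in both lines and JARID2 in neither. AEBP2 (chromosome 12, 19404045 to 19720801, plus strand) had normalized counts of 1482, 1348 and 1307 in siNT and 923, 968 and 834 in siPHF19 of MDA-MB-436. In BoM-1833 they were 497, 597 and 519 in siNT and 372, 432 and 450.5 in siPHF19. Every siPHF19 library was below every siNT library of its line, and the mean fell by 34.1% in the former and fell by 22.2% in the latter line. The 95% intervals of the log2 fold change from the authors' deposited tables are -0.78 to -0.42 (adjusted p 3.93e-09) and -0.59 to -0.14 (adjusted p 0.0211, DESeq2). The call in MDA-MB-436 held in each of the 14 other fits tried, which include a DESeq2 refit that repeats the deposited fit. That in BoM-1833 was lost without siNT library 2 (adjusted p 0.248) or 3 (0.0542) and without siPHF19 library 1 (0.232) or 2 (0.0859, DESeq2).

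JARID2 (chromosome 6, 15246296 to 15522040, plus strand) had normalized counts of 431, 453 and 444 in siNT and 534, 521 and 525 in siPHF19 of MDA-MB-436, where all siPHF19 libraries were higher, by 18.9% in the mean. In BoM-1833 they were 1091, 1209 and 1296 in siNT and 1188, 1102 and 1147 in siPHF19, which overlapped. The authors' deposited tables give 0.25 (SE 0.10, adjusted p 0.0560) and -0.06 (SE 0.09, adjusted p 0.759, DESeq2). In MDA-MB-436 JARID2 was just outside the threshold and was called by edgeR (adjusted p 0.0276), by limma (0.0299) and by DESeq2 on all 12 libraries (0.0202). It was not called by DESeq2 without its filter (adjusted p 0.0774) or with the replicate number as a block (0.306). None of the 6 fits without 1 library called it (0.102 to 0.269, DESeq2).

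C17orf96, or EPOP (chromosome 17, 38671703 to 38675421, minus strand), which links PRC2.1 to elongin, had normalized counts of 482, 448 and 484 in siNT and 337, 266 and 327 in siPHF19 of MDA-MB-436. In BoM-1833 they were 411, 393 and 356 in siNT and 291, 287 and 324 in siPHF19. No libraries overlapped, and the mean fell by 34.3% in the former and fell by 22.2% in the latter line. The 95% intervals from the authors' deposited tables are -0.86 to -0.36 (adjusted p 2.57e-05) and -0.61 to -0.12 (adjusted p 0.0320, DESeq2). In MDA-MB-436 the call held in each of 14 other fits, including the refit that repeats the deposited fit. In BoM-1833 it was lost without siNT library 1 (adjusted p 0.107) or 2 (0.166) and without siPHF19 library 1 (0.182), 2 (0.225) or 3 (0.0649, DESeq2).

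LCOR (chromosome 10, 96832282 to 96995959, plus strand), a corepressor gene whose long isoform is PALI1, had normalized counts of 579.6, 595 and 735 in siNT and 806, 826 and 751 in siPHF19 of MDA-MB-436. In BoM-1833 they were 526, 790.3 and 698 in siNT and 766, 774 and 705 in siPHF19, which overlapped. The siNT library that lay apart from its group in LCOR was number 3 in MDA-MB-436 and number 1 in BoM-1833. The authors' deposited tables give 0.32 (SE 0.11, adjusted p 0.0221) and 0.16 (SE 0.12, adjusted p 0.524, DESeq2). The call in MDA-MB-436 held only without siNT library 3 (0.43, adjusted p 3.25e-04) among the 6 fits that left out 1 library: it was lost without siNT library 1 (0.0719) or 2 (0.193) and without siPHF19 library 1 (0.131), 2 (0.176) or 3 (0.0568, DESeq2). It was also lost in DESeq2 on all 12 libraries (adjusted p 0.0536). Gene-level counts do not separate the isoforms.

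**Figure D3:**
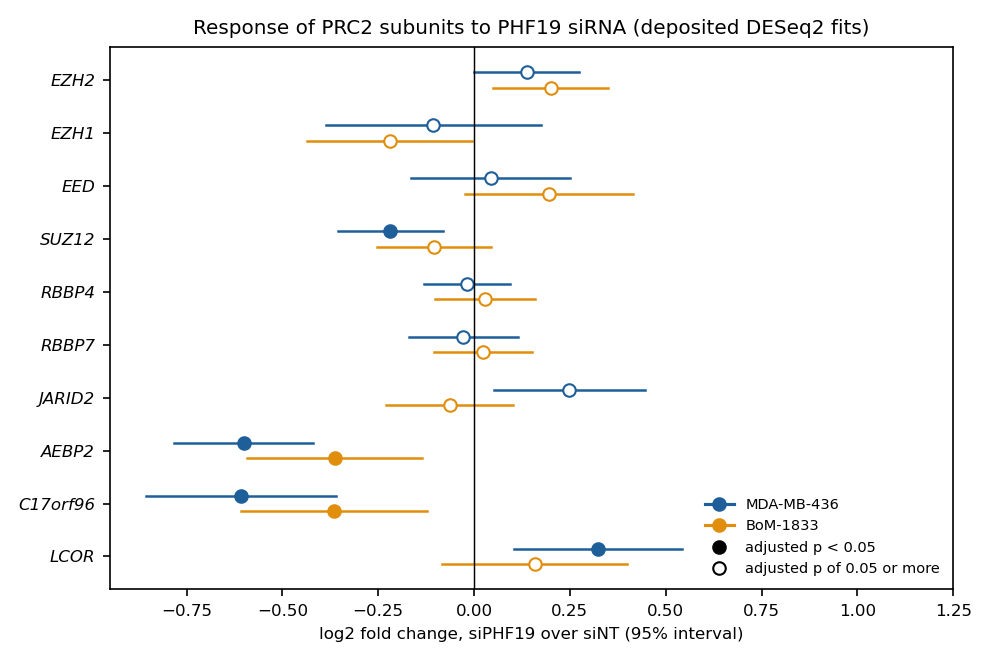
Log2 fold change of siPHF19 over siNT with 95% intervals from the authors' deposited DESeq2 fits, MDA-MB-436 in blue and BoM-1833 in orange; filled points have an adjusted p under 0.05. AEBP2 and C17orf96 are filled in both lines, SUZ12 and LCOR in MDA-MB-436, and the intervals of RBBP4 and RBBP7 are centred near 0.

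The sign of the log2 fold change in the authors' deposited tables was the same in both lines for 7 of the 10 genes. How many of all genes kept their sign between the lines was not counted. The response did not pass a test of the difference between lines for any of the 10 (z test on the deposited values, adjusted over 12290 genes), beside 4.89% of all genes called. An unadjusted p under 0.05 was reached by 1, JARID2 (0.0171, z test), and interaction terms in DESeq2 and in edgeR also called 0. The shares of all genes that reached these levels were not counted, so neither count can be set against a background. For JARID2 the difference, BoM-1833 minus MDA-MB-436, was -0.31 (95% interval -0.57 to -0.06, adjusted p 0.180, z test). Without BoM-1833 siNT library 1 it was called, at -0.38 (adjusted p 0.0405, z test on DESeq2 refits). For AEBP2 the difference was 0.24 (interval -0.06 to 0.53) and for C17orf96 0.24 (interval -0.10 to 0.59), so the larger decrease in MDA-MB-436 was not shown to differ from that in BoM-1833.

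Ratios within a library compare subunits that can replace or partner each other, on the scale of reads per kb of exon, and are given without a test. The EZH2 to EZH1 ratio was 14.8, 12.4 and 11.7 in MDA-MB-436 siNT and 3.23, 3.04 and 2.96 in BoM-1833 siNT, 4.21-fold apart in the mean. After siPHF19 it was 13.6, 15.5 and 17.03 in MDA-MB-436, which overlapped siNT, and 4.28, 3.81 and 4.31 in BoM-1833, which did not and was 34.3% higher in the mean. The AEBP2 to JARID2 ratio was above 1 in every library of MDA-MB-436 and below 1 in every library of BoM-1833. It measured 3.45, 2.98 and 2.95 in MDA-MB-436 siNT and 1.73, 1.86 and 1.59 in siPHF19, so its mean fell by 44.7%. In BoM-1833 it measured 0.457, 0.495 and 0.402 in siNT and 0.315, 0.393 and 0.394 in siPHF19. Neither pair of groups overlapped.

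The RBBP4 to RBBP7 ratio stayed at 0.324 ± 0.0173 and 0.325 ± 0.00670 in MDA-MB-436 and at 0.273 ± 0.00388 and 0.274 ± 0.00436 in BoM-1833 (siNT and siPHF19, SD, n = 3). The C17orf96 to LCOR ratio was 5.75, 5.20 and 4.55 in MDA-MB-436 siNT and 2.89, 2.22 and 3.01 in siPHF19. In BoM-1833 it was 5.39, 3.43 and 3.52 in siNT and 2.62, 2.56 and 3.18 in siPHF19. The siPHF19 libraries lay below the siNT libraries in both lines for this ratio. The size of a ratio depends on the gene length used, most of all for LCOR, but its change within a line does not.

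**Figure D4:**
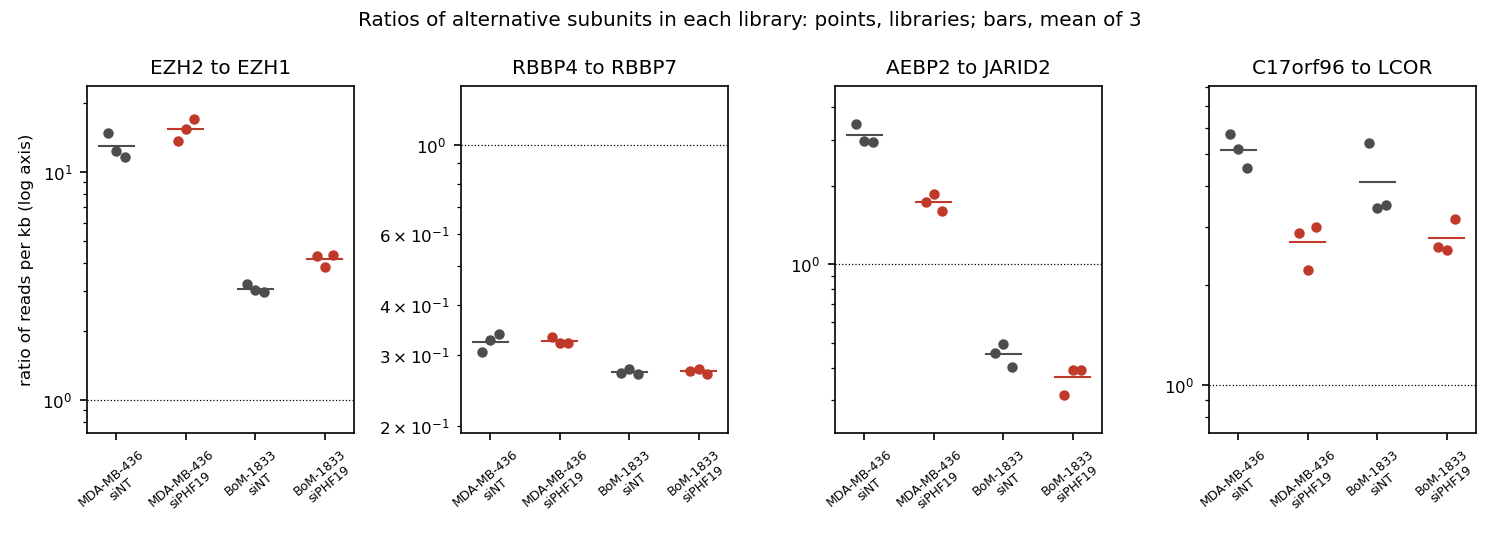
Ratio of subunits that can replace or partner each other, in reads per kb of exon on a log axis with 1 dotted. Points are libraries and bars the mean of 3 (grey siNT, red siPHF19). AEBP2 to JARID2 lies above 1 in MDA-MB-436 and below 1 in BoM-1833, and RBBP4 to RBBP7 is level within each line.

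An siRNA can also lower transcripts that pair with its seed in their 3′ UTR, as a microRNA does. The siRNA sequences are not in the labels, and the 6-base word AAACTG was taken from earlier results on these same data, so its share among lowered genes supports nothing. It was present in the 3′ UTR of 43.9% of genes tested in both lines that have one annotated (0.475 matches per kb), of 70.6% of those called lower in both (0.797 per kb) and of 36.8% of those called higher in both (0.342 per kb). Among the subunit genes 7 of 10 held it. AEBP2 had 4 matches (1.14 per kb), JARID2 3 (1.69 per kb), EZH1 3 (1.33 per kb), SUZ12 2 (0.979 per kb), C17orf96 1 (0.605 per kb), LCOR 5 (0.462 per kb) and RBBP4 2 (0.307 per kb), while EZH2, EED and RBBP7 had 0. The windows of AEBP2 and C17orf96, lower in both lines, are printed with those of JARID2, called in neither, in 26 bases of the GENCODE 3′ UTR (GRCh38, sense strand) with the word in capitals.
AEBP2, position 310: aagtatcttcAAACTGaatcttttat
AEBP2, position 860: atatgcagtgAAACTGcagaaaatac
AEBP2, position 2223: aaaattattaAAACTGttgtataaaa
AEBP2, position 3251: gtttatatgaAAACTGatatgtatgt
C17orf96, position 1614: ttcttgagaaAAACTGttttggacca
JARID2, position 152: ttttagcattAAACTGttgaactttt
JARID2, position 209: cagattttggAAACTGccgtatagtc
JARID2, position 1370: taaaaaagggAAACTGttttcacaag
The part of such pairing in the members' values was not tested.

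Other genes of the pathway were described by lists. Of the other PRC2.1 accessory subunits and inhibitors 4 were tested, and only the siRNA target PHF19 was called. The Polycomb-like paralogs MTF2 and PHF1 had log2 fold changes of 0.02 and 0.09 in MDA-MB-436 and of 0.13 and 0.06 in BoM-1833 in the authors' deposited tables, none called, and LCORL, the paralog of LCOR, had -0.25 (adjusted p 0.129) and -0.28 (adjusted p 0.134, DESeq2). Of 26 subunits of other complexes that hold RBBP4 or RBBP7, 1 was higher and 7 lower in MDA-MB-436, 30.8% of the list beside 22.1% of all genes. In BoM-1833, 0 were higher and 3 lower, 11.5% beside 10.9%, and the medians were -0.07 and -0.04. MTA2 and CHD4 of the NuRD remodeller had -0.86 and -0.54 in MDA-MB-436 and -0.59 and -0.20 in BoM-1833 in the authors' deposited tables, and GATAD2A of the same complex -0.43 and -0.31, all called.

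Of 24 S phase targets of E2F, 4 were higher and 8 lower in MDA-MB-436 (median -0.15), 50% of the list beside 22.1% of all genes. In BoM-1833, 4 were higher and 0 lower (median 0.07), 16.7% beside 10.9%, by the authors' deposited tables. MCM3 of the replicative helicase was lower in MDA-MB-436 (-0.37), where EZH2 lay at 0.14, while the authors' deposited table for BoM-1833 has it at -0.02. RRM2, a ribonucleotide reductase subunit, was higher in both lines (0.40 and 0.55), and so was CCNA2, encoding cyclin A2 (0.23 and 0.36), in the authors' deposited tables. Another list held 21 genes for H3K27 demethylases and for PRC1, some forms of which bind the PRC2 mark. Of these, 5 were higher and 1 lower in MDA-MB-436 (median 0.07), 28.6% of the list beside 22.1% of all genes. In BoM-1833, 2 were higher and 0 lower (median 0.00), 9.52% beside 10.9%. BMI1 of PRC1 was higher in both (0.48 and 0.32), and CBX6 (0.62) and the demethylase KDM6B (0.46) were called in MDA-MB-436, with 0.13 and 0.01 in BoM-1833, in the authors' deposited tables. The authors' deposited tables have PCGF3, another PRC1 subunit, at 0.24 in BoM-1833, which was called, and at 0.12 in MDA-MB-436.

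Across the 12 libraries, with the mean of each line removed, Pearson's r of log2 CPM described which of 8809 genes varied most like a subunit gene. The libraries share the siRNA contrast, so any 2 genes that respond to it correlate. For EZH2 these were MAPRE1 (0.968), DHRS7 (0.966) and HN1 (0.962), and for AEBP2 EIF1AX (0.975), ERI1 (0.974) and SLMO2 (0.973). For JARID2 they were STXBP5 (0.974), SH3PXD2A (0.970) and RASSF8 (0.964), and for C17orf96 KARS (0.981), NUP93 (0.978) and MAK16 (0.965). Among the subunit genes themselves AEBP2 varied with SUZ12 (0.942) and with C17orf96 (0.853), and EZH2 opposite to AEBP2 (-0.826), SUZ12 (-0.823) and C17orf96 (-0.794).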

How the data were processed

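The authors deposited 1 DESeq2 table per line. The deposited signal per library is, per the file headers and values, the authors' gene count divided by a size factor. The log2 fold changes, Wald statistics (a score) and p-values are the authors' own. The submitters' processing notes name STAR, RSEM 1.3.1, DESeq2 1.46.0 and hg38; annotation and strandedness of counting are not given in the sources used here. Whole reads were recovered from 100% of values (tolerance 0.02 reads), and DESeq2 1.42.0 run on them gave the deposited counts of calls, 3143 and 1411; edgeR 4.0.16 called 3422 and 1527. Depth was 13.7 to 24.0 M reads per library.

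Knockdown was read from the deposited Wald tests, the difference between lines from z tests, and the siNT contrast from limma 3.58.1 (trend) on log2 CPM with TMM factors and a prior count of 2. The threshold for a call was 0.05 after Benjamini-Hochberg adjustment over all genes tested. Lengths and 3′ UTRs came from GENCODE v29. Alternatives changed the tool, filter, pseudocount, scaling, block and each library in turn. The DESeq2, edgeR, limma and z tests were tested on simulated data.

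The members and lists were chosen with earlier results of these data known. Named genes were the members, PHF19, the 3 genes most like each of 4 members and at most 2 genes per list and line with the smallest adjusted p; MTF2, PHF1 and SUZ12P1 were chosen after their values were seen, and 1 list gene is not reported here. Library numbers come from the titles and were not taken to pair samples, since same-numbered libraries did not all deviate together. No column was left unmapped (0).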

Additional observations from a re-analysis of the deposited data

How the results depend on the processing

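The 560 alternative values of single subunit genes include the DESeq2 refits, which repeat the deposited fits. Most of the 560 belong to differences that were not called in the main fits, so the share kept says little about how stable a call was. Of the 560, 511 kept direction and side of the threshold, 29 lost and 13 gained a call and 7 changed sign. The cause of these changes was not tested, except that fits without a library hold fewer samples. Changes of sign were near 0. Without 1 library at a time, EED ranged from -0.012 (without siNT library 3) to 0.11 and RBBP7 from -0.079 to 0.033 (without siNT library 1) in MDA-MB-436, and RBBP7 from -0.015 (without siNT library 2) to 0.067 in BoM-1833. The response difference of RBBP7 ranged from -0.010 (without MDA-MB-436 siNT library 1) to 0.10. The siNT difference of EED between lines ranged from -0.048 (without MDA-MB-436 siNT library 3) to 0.084, was -0.020 without BoM-1833 siNT library 1 and was -0.0089 with upper-quartile factors.

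With the replicate number as a block, DESeq2 called 1610 genes (2 subunit genes) for MDA-MB-436 and 610 genes (0 subunit genes) for BoM-1833. SUZ12 (adjusted p 0.180) and LCOR (0.124) lost their calls for MDA-MB-436, as did AEBP2 (0.163) and C17orf96 (0.285) for BoM-1833. Same-numbered siNT and siPHF19 libraries did not deviate together (r of -0.23, 0.04 and -0.27 for MDA-MB-436, -0.33, -0.12 and -0.20 for BoM-1833). Between the siNT libraries of the lines numbers 1 and 3 did (r of 0.57 and 0.51) and number 2 did not (-0.05), and the limma block also called LCOR there (0.25, adjusted p 0.0355). Fits without 1 library gave 1767 to 3801 genes and 2 to 4 subunit genes for MDA-MB-436, 746 to 2046 genes and 0 to 2 subunit genes for BoM-1833, and 0 to 1 subunit genes that differed between lines in response. The siNT contrast gave 11146 to 13115 genes and 6 to 8 subunit genes under all alternatives.

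A length from the longest coding transcript, chosen after seeing the data, moved the AEBP2 to JARID2 ratio of siNT to 3.52 (MDA-MB-436) and 0.508 (BoM-1833) and that of C17orf96 to LCOR to 3.22 and 2.56.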
